A study of Mus musculus with 12 samples.

Results

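The SLC26 genes encode a family of membrane proteins that carry anions, mainly chloride, bicarbonate, sulfate, oxalate, and iodide, across epithelial and other membranes. The members were the rows of the 12 libraries whose gene name was *Slc26a1*, *Slc26a2*, *Slc26a3*, *Slc26a4*, *Slc26a6*, *Slc26a7*, *Slc26a8*, *Slc26a9*, or *Slc26a11*, which makes 9 of 54532 genes. They were selected on measured values of these libraries, their TPM by tissue and genotype, so their values and fold changes are given as a description. RNA sequencing had been performed on the distal colon and the urinary bladder of male mice 5 to 7 weeks old, with 3 libraries of each genotype in each tissue. Both genotypes carried floxed *Yap1* and *Wwtr1*, the genes of the transcriptional co-activators YAP and TAZ, and all mice received tamoxifen at 1 mg per mouse on each of 5 days, with tissue taken on day 7 counted from the first dose. Ctrl mice lacked Cre, and Y/T KO mice carried the Myh11-CreERT2 transgene, a tamoxifen-inducible Cre recombinase under a promoter of smooth muscle myosin heavy chain. Deletion was thus directed at smooth muscle, whereas the sequenced RNA came from tissue that also held epithelium, connective tissue, nerves, and vessels. The 12 libraries came from 9 mice, of which Ctrl mouse 788 and Y/T KO mice 783 and 780 gave both tissues.

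In the colon, SLC26A3 (also called DRA, down-regulated in adenoma) exchanges luminal chloride for bicarbonate at the apical membrane of surface colonocytes. It works beside the sodium-proton exchanger NHE3 in the uptake of salt and water, and its loss in human beings causes congenital chloride diarrhea. SLC26A2 is a sulfate transporter best known from the chondrodysplasias caused by its loss, and it also is abundant in the colonic epithelium. SLC26A7 is a chloride-bicarbonate exchanger and chloride channel known from the thyroid, the renal collecting duct, and the gastric parietal cell, and SLC26A4 is pendrin, which carries iodide and bicarbonate in the thyroid, inner ear, and kidney.

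The libraries held 2.80 to 3.94 gigabases of aligned sequence. Levels are given as TPM, the length-scaled share of a library that falls to a transcript, as deposited, and means ± SD are of TPM rescaled by size factors within a tissue. The tissue labels fitted the defining markers, as *Upk2*, a urothelial gene, ran from 642 to 905 TPM in the bladder and was at most 0.172 TPM in the colon, whereas *Cdx2*, an intestinal transcription factor, ran from 30.0 to 89.7 TPM in the colon and was listed at 0 in all 6 bladder libraries. *Yap1* ran from 45.8 to 54.9 TPM in the Ctrl colon and from 41.3 to 47.0 TPM in the Y/T KO colon, and in the bladder it ran from 98.6 to 109.8 TPM and from 69.4 to 72.1 TPM. *Wwtr1* was not lower in the Y/T KO libraries (log2 fold change, 0.18; SE, 0.16 in the colon and 0.24; SE, 0.24 in the bladder). These are RNA values of the whole gene in whole tissue. The study reported less YAP and TAZ protein in the Y/T KO colon by Western blot, which these libraries do not measure. Markers of tissues outside the organ were found in some libraries. The 6 pancreatic acinar markers summed to 7.03 to 127.9 TPM in the Ctrl colon and to at most 1.08 TPM in the Y/T KO colon, and *Pbsn* (probasin, of the prostate and seminal vesicle) exceeded 10 TPM in the bladder libraries of Ctrl mouse 784 and Y/T KO mice 783 and 780. The other listed markers of seminal vesicle and prostate did not follow *Pbsn*. *Svs2* and *Pate4* were listed at 0 in all 12 libraries, *Svs4* was at most 0.136 TPM, and *Svs5* was at most 2.14 TPM, with overlap between those bladder libraries and the rest.

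*Slc26a3* and *Slc26a2* made up nearly all of the family in the colon, whereas in the bladder the leading member was *Slc26a2* in some libraries and *Slc26a4* in others. The 9 members summed to 572 to 1058 TPM in the Ctrl colon and 265 to 543 TPM in the Y/T KO colon, and to 36.0 to 50.5 TPM in the Ctrl bladder and 33.8 to 84.6 TPM in the Y/T KO bladder. *Slc26a3* made up 65.1% to 72.2% of the summed TPM in the Ctrl colon and 66.8% to 71.1% in the Y/T KO colon. Its share was thus alike in the 2 genotypes of the colon although the total was not. *Slc26a2* made up most of the rest, between 26.5% and 34.1% in the 6 colon libraries. These shares depend on the measure, because of the summed coverage (the mean read depth along a gene) *Slc26a2* held the larger part, 52.8% to 62.1% in Ctrl and 52.9% to 59.4% in Y/T KO, and *Slc26a3* held 36.2% to 44.1% and 37.7% to 42.9%. Smaller shares of the summed TPM differed between the genotypes of the colon. That of *Slc26a7* was 0.117% to 0.193% in Ctrl and 0.0215% to 0.0324% in Y/T KO. That of *Slc26a11* was 0.624% to 1.13% in Ctrl and 1.21% to 3.06% in Y/T KO. The TPM of *Slc26a11* itself overlapped, at 6.48 to 7.68 in Ctrl and 6.55 to 8.10 in Y/T KO, whereas the family total was lower in Y/T KO. In the Ctrl bladder, *Slc26a3* contributed 3.94% to 14.4% of the summed TPM, *Slc26a2* 38.0% to 63.2%, and *Slc26a11* 14.9% to 27.0%. In the Y/T KO bladder the same 3 genes contributed 0.454% to 11.1%, 21.0% to 55.1%, and 9.65% to 32.6%. *Slc26a4* contributed 38.0% in Ctrl mouse 784, 54.7% in Y/T KO mouse 783, and 63.0% in Y/T KO mouse 780, and it was listed at 0 in the other 3 bladder libraries.

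**Figure D1:**
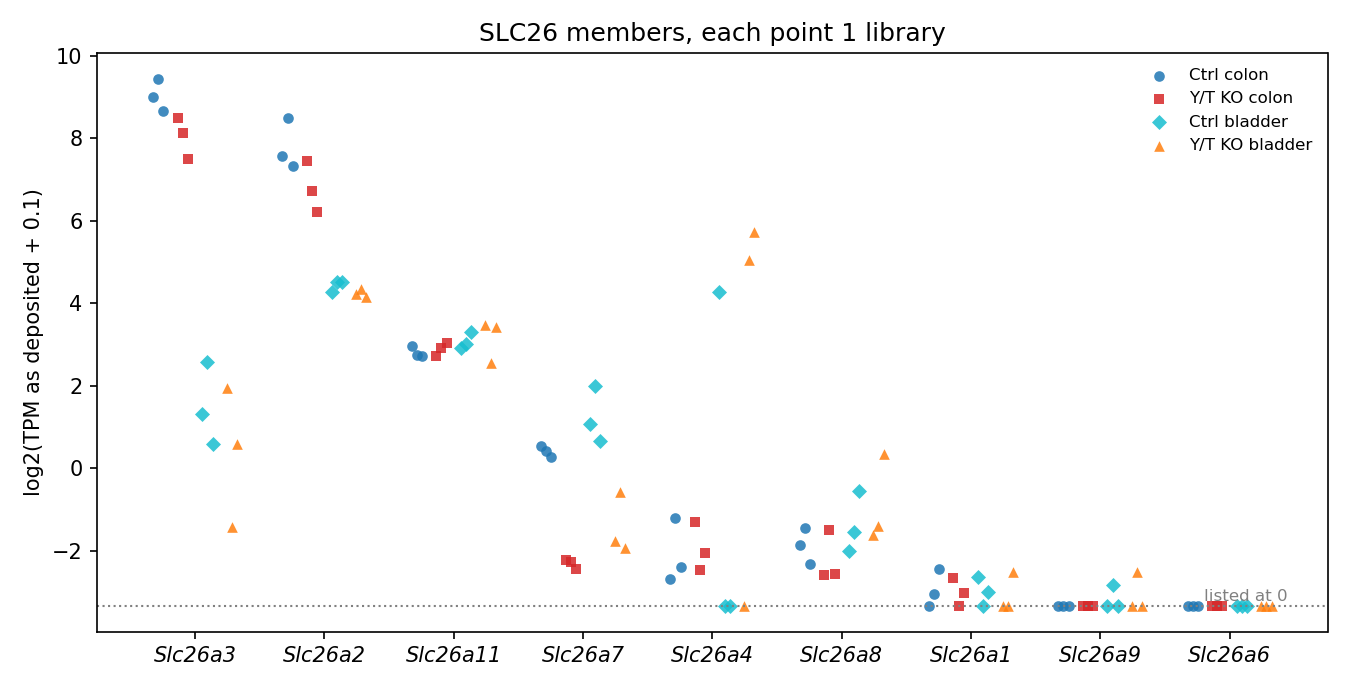
TPM as deposited of the 9 SLC26 members in each library, on a log2 scale after adding 0.1 TPM, with 3 points for each genotype and tissue. *Slc26a3* and *Slc26a2* stand above the other members in the colon, *Slc26a11* is at the same height in all 4 groups, *Slc26a4* is high in 3 bladder libraries and listed at 0 in the other 3, and *Slc26a6* is listed at 0 throughout.

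In the Ctrl colon the order of the mean levels in TPM was *Slc26a3*, *Slc26a2*, *Slc26a11*, *Slc26a7*, *Slc26a8*, *Slc26a4*, and *Slc26a1*, with *Slc26a6* and *Slc26a9* listed at 0. The first 4 of these each stood above the next without overlap of libraries, and the remaining neighbors overlapped. By coverage the first 2 changed places. In the Y/T KO colon the mean of *Slc26a7* stood below those of *Slc26a4* and *Slc26a8*, and its libraries overlapped those of both. In the Ctrl bladder *Slc26a2* had the highest mean, without overlap with *Slc26a11*, and *Slc26a11*, *Slc26a4*, *Slc26a3*, and *Slc26a7* followed with each overlapping its neighbor.

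*Slc26a3* was one of the most abundant epithelial transport transcripts of the colon. It lies on the forward strand of chromosome 12 (chr12:31390871-31473917 in GRCm38), and *Slc26a4* lies on the opposite strand 45909 bases downstream (chr12:31519827-31559969). The pair is shown here by promoter because these neighbors had contrasting levels, the first being high in the colon and the second being near 0 there. The sequences are the 250 bases before the start site in the RefSeq promoter table for GRCm38.p6, at chr12:31437969-31438218 on the forward strand for *Slc26a3* and chr12:31559985-31560234 on the reverse strand for *Slc26a4*, each read 5′ to 3′ along its gene. Capitals mark matches, on either strand, to the core letters CAAAG of HNF4 and TTTATG of CDX, which are factors of the intestinal epithelium.
*Slc26a3*: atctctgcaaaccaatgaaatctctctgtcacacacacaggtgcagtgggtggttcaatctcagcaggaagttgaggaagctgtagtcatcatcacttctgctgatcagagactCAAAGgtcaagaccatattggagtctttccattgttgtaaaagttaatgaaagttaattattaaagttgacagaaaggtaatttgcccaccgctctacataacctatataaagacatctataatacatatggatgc
*Slc26a4*: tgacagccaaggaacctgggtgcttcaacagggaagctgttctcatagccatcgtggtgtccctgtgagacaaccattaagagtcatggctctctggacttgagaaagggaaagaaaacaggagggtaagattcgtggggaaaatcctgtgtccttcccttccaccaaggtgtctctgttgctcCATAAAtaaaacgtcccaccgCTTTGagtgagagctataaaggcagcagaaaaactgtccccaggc
The *Slc26a3* stretch held 1 match to the HNF4 letters, between 136 and 132 bases before the start, and none to TTTATG, to the TEAD letters GGAATG, or to the GATA letters AGATAA. The *Slc26a4* stretch held 1 match to the CDX letters (66 to 61 bases before the start) and 1 to the HNF4 letters (45 to 41 bases before the start). Among 32851 promoters of the same length, 48.6% held the HNF4 letters, 10.8% the CDX letters, 12.6% the TEAD letters, and 9.99% the GATA letters. Guanine and cytosine made up 38.8% of the *Slc26a3* stretch and 49.6% of the *Slc26a4* stretch, against a median of 52.4% over the table. Of the 9 members, 6 had an entry in the table, and among these *Slc26a8* alone held the TEAD letters. The gene span in the deposited files begins 47348 bases before the RefSeq start site of *Slc26a3*, and the GENCODE annotation lists 7 transcripts for the gene, of which 2 are protein-coding.

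In the Ctrl colon, *Slc26a3* was at 516 TPM in mouse 788, 689 TPM in mouse 786, and 403 TPM in mouse 787. In the Y/T KO colon it was at 362 TPM in mouse 759, 279 TPM in mouse 783, and 182 TPM in mouse 780. Each Y/T KO library was below each Ctrl library, and the gene ranked between 185th and 355th by TPM in the Ctrl libraries and between 406th and 860th in the Y/T KO libraries. The mean was 523 ± 104 TPM in Ctrl and 277 ± 89.3 TPM with the knockout (SD, n = 3 each), a ratio of 0.530, and the log2 fold change was -0.95 with an SE of 0.26.

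*Slc26a2* followed the same course with 1 library in overlap. Its TPM was 189, 361, and 162 in the Ctrl colon (mice 788, 786, and 787). In the Y/T KO colon its TPM was 173, 106, and 74.5 (mice 759, 783, and 780). The highest Y/T KO library, from mouse 759, exceeded the lowest Ctrl library, and Ctrl mouse 786 stood well above the other 2 Ctrl mice. The Ctrl mean was 229 ± 86.4 TPM and the Y/T KO mean 119 ± 50.4 TPM (SD, n = 3 each), and the log2 fold change was -0.97 with an SE of 0.35. Without mouse 786 it was -0.68. The ratio of *Slc26a3* to *Slc26a2* ran from 1.91 to 2.73 in the Ctrl colon and from 2.09 to 2.65 in the Y/T KO colon, so that the 2 transcripts kept their proportion to each other within the spread between mice. Which of the 2 was higher depended on the measure. By deposited coverage, *Slc26a3* reached 0.583 to 0.835 of *Slc26a2* in the Ctrl colon and 0.635 to 0.811 in the Y/T KO colon, and coverage per gigabase averaged 50.3 for *Slc26a3* and 72.5 for *Slc26a2* in the Ctrl colon. The quotient of coverage to fragments per kilobase, set to 1 for the typical gene of a library, was 0.191 for *Slc26a3* and 0.630 for *Slc26a2*. The fold changes hardly moved with the measure, as by coverage the log2 fold change in the colon was -0.95 for *Slc26a3* and -0.97 for *Slc26a2*.

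Of the 4 members tested in the colon (*Slc26a2*, *Slc26a3*, *Slc26a7*, and *Slc26a11*), none passed a Benjamini-Hochberg adjusted p of 0.05 in limma, a threshold passed by 24 of 17500 genes (0.137%). At an unadjusted p of 0.05 in the same fit, 3 passed, all lower, against 4.59% of all genes in that direction. The groups did not overlap for *Slc26a3* and *Slc26a7*, both lower, against 8.28% of all genes. The members had been picked with these values known, so nothing is read from these counts. The median log2 fold change of the 4 was -0.96, and that of all tested genes was 0.01.

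The sum of the epithelial markers was at a like level in the 2 genotypes of the colon, although some single markers were lower in Y/T KO. The 16 markers of colonic epithelium summed to 19244 to 24595 TPM in Ctrl and 20198 to 22905 TPM in Y/T KO. None of the 15 that were tested was called by limma, with 2 lower and none higher at an unadjusted p of 0.05, against 4.59% and 5.14% of all genes. In TPM as deposited, 4 of the 15 were lower without overlap (*Aqp8*, *Car1*, *Cdhr5*, and *Vil1*) and none higher, against 8.28% of all genes lower. *Cdhr5*, a brush border gene, ran from 345 to 381 TPM in Ctrl and from 227 to 340 TPM in Y/T KO. *Slc26a3* amounted to 17.4 to 35.8 TPM per 1000 TPM of these markers in Ctrl and 9.0 to 16.4 in Y/T KO, which do not overlap. *Slc26a2* amounted to 6.98 to 18.7 and 3.69 to 7.85, which overlap. The genotypes were apart in *Slc26a3* TPM before this division and the marker sums were alike, so the ratio is no separate test. Single genes of the absorptive surface, chosen here after their values were seen, differed among themselves, and *Car1*, *Aqp8*, and *Slc9a3* lay near *Slc26a3*. *Car1*, a cytosolic carbonic anhydrase of the surface colonocyte, stood at 68.2%, 37.9%, and 23.5% of the Ctrl mean in mice 759, 783, and 780, and *Slc26a3* stood at 69.8%, 53.5%, and 35.7% in the same libraries. The water channel gene *Aqp8* stood at 71.1%, 59.4%, and 49.0%, and *Slc9a3*, the gene of NHE3, at 87.4%, 56.8%, and 38.7%. *Car4*, of a membrane-bound carbonic anhydrase, stood higher, at 78.1%, 83.1%, and 66.6%. *Krt20*, a keratin of surface colonocytes, stood between 81.3% and 115.5%, and *Guca2a*, the gene of guanylin, between 68.7% and 130.4%, both in overlap with Ctrl. *Vil1*, the gene of the brush border protein villin, stood between 87.1% and 91.6%, *Lgals4*, a galectin of the intestinal epithelium, between 100.1% and 109.7%, and *Epcam*, an adhesion molecule of epithelia in general, between 93.4% and 111.6%. In RNA from whole tissue, fewer cells of a type and less RNA per cell cannot be told apart. The pancreatic acinar markers were higher in the Ctrl colon libraries as given above, and their part in the *Slc26a3* and *Slc26a2* values was not tested.

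**Figure D2:**
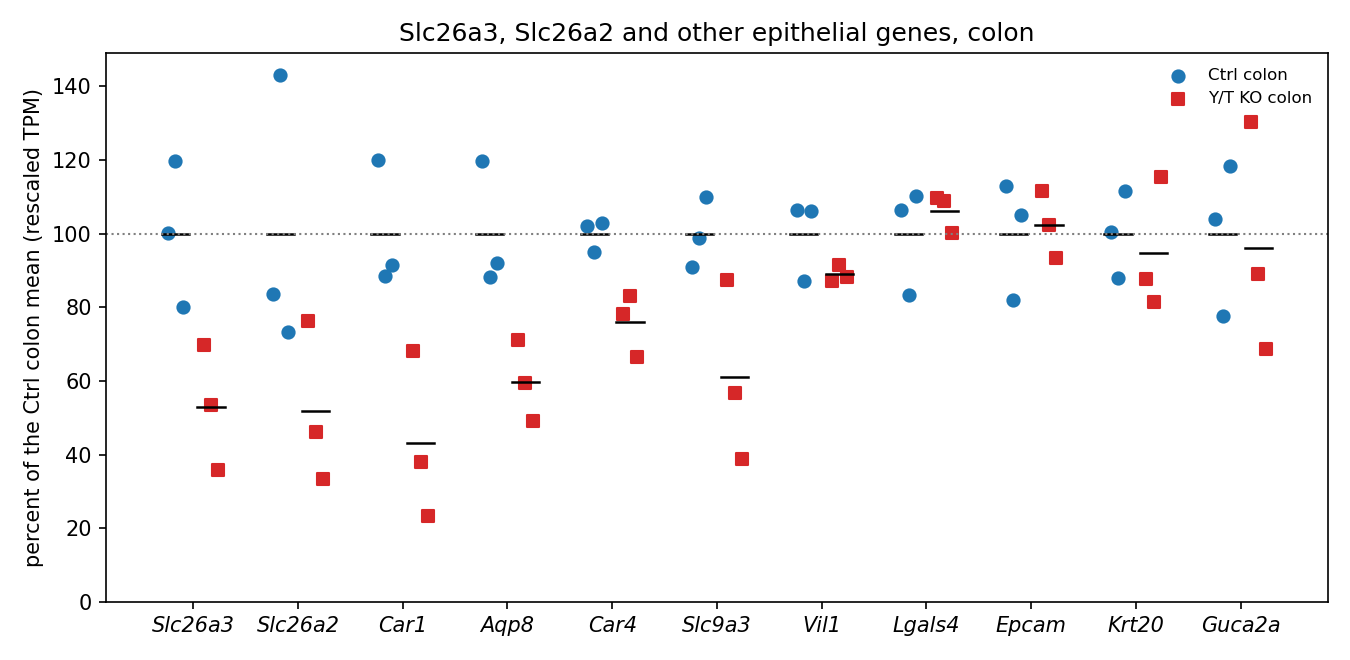
Level of each gene in each colon library as a percentage of the Ctrl colon mean of that gene, from TPM rescaled within the tissue, with short lines at the group means. The 3 Y/T KO libraries lie at 35.7% to 69.8% for *Slc26a3* and 33.4% to 76.2% for *Slc26a2*, near those of *Car1*, *Aqp8*, and *Slc9a3*. *Car4* lies at 66.6% to 83.1%, *Krt20* and *Guca2a* overlap with Ctrl, and *Vil1*, *Lgals4*, and *Epcam* lie between 87.1% and 111.6%.

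In the bladder *Slc26a3* was low and variable. Its TPM was 2.38, 5.86, and 1.42 in the Ctrl bladder (mice 784, 785, and 788). In the Y/T KO bladder it was 3.74, 0.273, and 1.41 (mice 782, 783, and 780), and the genotypes overlapped. The means were 3.23 ± 2.36 and 1.76 ± 1.69 TPM (SD, n = 3 each), and the log2 fold change was -1.13 with an SE of 0.91. It was -0.25 without Y/T KO mouse 783. Without the 3 bladder libraries above 10 TPM of *Pbsn* it was 0.33, a value that rests on mouse 782 as the lone Y/T KO library. Of the 16 markers of colonic epithelium, 4 to 6 were listed at 0 in each of these libraries, and the list summed to 2116 to 2719 TPM there, with *Krt8*, a keratin that urothelium also expresses, at 459 to 623 TPM. *Cdx2* was listed at 0 in all 6, *Cdhr5*, of the brush border, was at most 0.0737 TPM, and *Vil1* ran from 0.103 to 0.322 TPM. *Lgals4* was higher than these, from 7.53 to 33.4 TPM, as was *Car4*, from 5.61 to 28.2 TPM, and *Aqp8* reached 10.2 TPM in Ctrl mouse 784 and 8.34 TPM in Y/T KO mouse 780. Their part in the *Slc26a3* values was not tested. *Slc26a2* was steady, from 19.2 to 22.8 TPM in Ctrl and from 17.7 to 20.2 TPM in Y/T KO, with a log2 fold change of -0.19 (SE, 0.12).

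Between the tissues, Ctrl colon against Ctrl bladder, both genes were higher in the colon, with a log2 fold change of 7.79 (SE, 0.74) for *Slc26a3* and 3.63 (SE, 0.30) for *Slc26a2*. They were the 2 called of 5 members tested, when 25.1% of 19773 genes were called higher in the colon. The 12 libraries kept both calls when any 1 of them was left out, with a range of 7.32 to 8.32 for *Slc26a3* and 3.33 to 3.83 for *Slc26a2*. When TPM as deposited was compared, the median of all genes shifted to -0.24 from 0.01, and the values were 7.54 and 3.37.

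Over the 12 libraries, the genes whose profile was most like that of *Slc26a3*, by the root mean square difference of log2(TPM + 0.1) after centering each gene on its mean, were *B3gnt7* (0.672), *Car4* (0.764), *Naip1* (0.787), *Tinag* (0.827), and *Cftr* (0.841), and the median over the other 19438 genes was 4.07. *Cftr* is the chloride channel mutated in cystic fibrosis. This likeness was set by the difference between tissues, because in the colon *B3gnt7* had a log2 fold change of 0.14, *Naip1* of -0.01, and *Cftr* of -0.33.

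*Slc26a7* had the largest fold difference between genotypes of all members tested in the colon, and it was lower in the Y/T KO libraries of both tissues. It lies on the reverse strand at chr4:14502430-14621805 (GRCm38). In the colon the TPM of Ctrl mice 788, 786, and 787 was 1.36, 1.24, and 1.10. The TPM of Y/T KO mice 759, 783, and 780 was 0.117, 0.106, and 0.0858. The replicates of a genotype lay close together and the genotypes were far apart, with means of 1.22 ± 0.139 and 0.104 ± 0.0149 TPM (SD, n = 3 each), an 11.7-fold difference. In the bladder the TPM of Ctrl mice 784, 785, and 788 was 1.99, 3.90, and 1.49. The TPM of Y/T KO mice 782, 783, and 780 was 0.197, 0.579, and 0.161. The means were 2.47 ± 1.29 and 0.318 ± 0.248 TPM (SD, n = 3 each), a 7.78-fold difference, and again each Y/T KO library was below each Ctrl library. In the mice that gave both tissues, the colon and the bladder were at 1.36 and 1.49 TPM in Ctrl mouse 788, 0.106 and 0.579 TPM for Y/T KO mouse 783, and 0.0858 and 0.161 TPM for Y/T KO mouse 780.

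**Figure D3:**
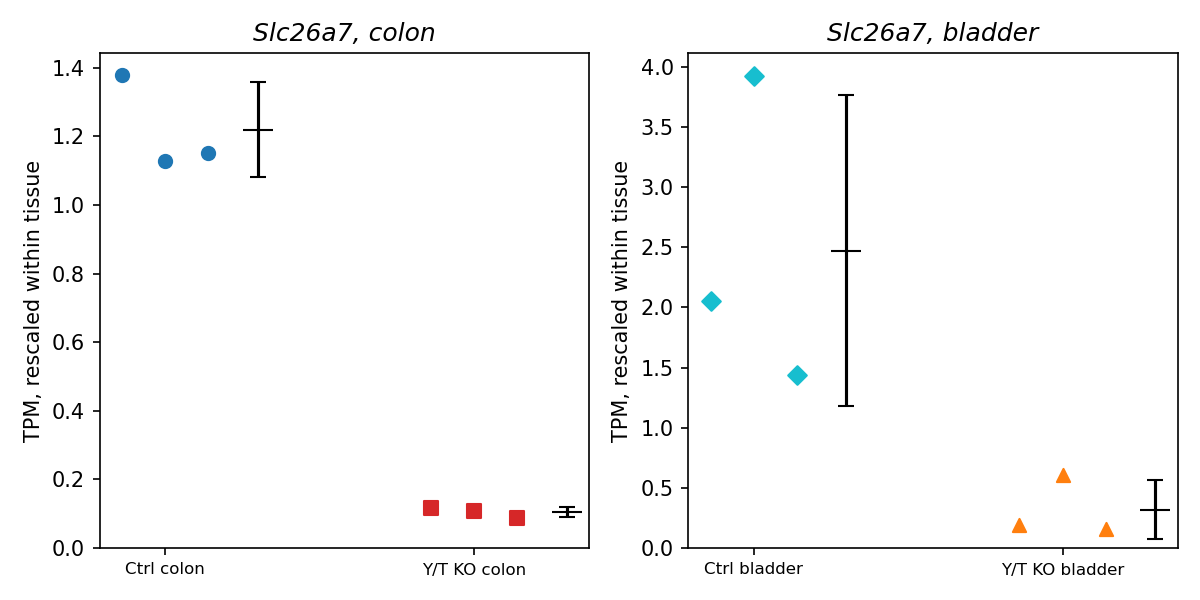
*Slc26a7* in each colon and bladder library as TPM rescaled within the tissue, with the mean and SD of the 3 libraries beside them. The Y/T KO libraries lie between 0.0882 and 0.118 TPM in the colon, below the lowest Ctrl library at 1.13 TPM, and between 0.161 and 0.603 TPM in the bladder, below the lowest Ctrl library at 1.44 TPM.

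The log2 fold change of *Slc26a7*, on the scale of log2(TPM + 0.1), was -2.69 (SE, 0.40) in the colon and -2.66 (SE, 0.56) in the bladder, and neither passed the adjusted threshold in the fit of 1 tissue. With the mouse as a block in a fit of all 12 libraries, the values were -2.70 and -2.65, and *Slc26a7* was called in both tissues, as were 0.417% of the genes in the colon and 0.400% in the bladder. It also was called in both when all 12 libraries were fitted together without the block (0.406% and 0.400% of genes), and in the colon alone when the trend and robust options of limma were left out (0.143%). Without a filter on low values it was called in neither tissue. In the colon only the Ctrl libraries reached the 0.5 TPM asked of 3 libraries for testing. The gene had been picked with these values known, so nothing is read from these calls. The low level limits the precision. Deposited coverage of the gene was 0.139 to 0.222 reads per base in the Y/T KO colon and 1.71 to 2.31 in the Ctrl colon, and 0.235 to 0.602 and 2.24 to 4.52 in the bladder. With 1 TPM added in place of 0.1, the log2 fold change was -1.01 in the colon and -1.35 in the bladder. Between the tissues of Ctrl mice the log2 fold change, colon against bladder, was -0.59 (SE, 0.45), which was not called, and it was -0.83 with TPM as deposited. In TPM as deposited each Ctrl colon library was below each Ctrl bladder library, as was the case for 36.8% of all genes, but after rescaling over all 12 libraries the ranges overlapped, at 1.26 to 1.52 TPM in the colon and 1.32 to 3.56 TPM in the bladder.

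Smooth muscle, the site of the deletion, has 9 markers in the list used, and their sum also was lower in the Y/T KO libraries. It ran from 7592 to 8321 TPM in the Ctrl colon and from 4972 to 5849 TPM in the Y/T KO colon, and from 35341 to 45982 TPM and from 16905 to 30985 TPM in the bladder, and none of the 9 was called by limma in either tissue (6 and 5 lower at an unadjusted p of 0.05, against 4.59% and 8.20% of all genes). The study, using DESeq2, reported *Acta2*, *Actg2*, *Synm*, and *Tagln* as down-regulated in both tissues. The lack of calls in limma thus does not show that these genes were unchanged. *Slc26a7* per 1000 TPM of these markers was 0.136 to 0.163 in the Ctrl colon and 0.0173 to 0.0222 in the Y/T KO colon, and 0.0350 to 0.0849 and 0.00635 to 0.0280 in the bladder. The genotypes did not overlap by this measure, as they had not in TPM. Mesothelial markers, 4 in number, summed to 34.5 to 44.4 TPM and 27.6 to 61.9 TPM in the Ctrl and Y/T KO colon and to 269.9 to 450.0 TPM and 147.3 to 378.2 TPM in the bladder. *Slc26a7* per 1000 TPM of them was 27.9 to 39.4 and 1.67 to 3.86 in the colon and 5.09 to 8.67 and 0.520 to 3.93 in the bladder, again without overlap. The genotypes were apart in TPM before these divisions, so the ratios are no separate test. The part of either cell type in the *Slc26a7* values was not tested.

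The genes whose profile over the 12 libraries was most like that of *Slc26a7* were *Ptprz1*, a receptor tyrosine phosphatase gene (root mean square difference, 0.512), *Gm5802*, a processed pseudogene (0.601), *Kif26a*, of a kinesin-like protein (0.605), *Gm45552*, an antisense RNA gene (0.622), and *G930009F23Rik*, a long intergenic RNA gene (0.690), against a median of 1.55 over the other 19438 genes. *Ptprz1* averaged 2.24 and 0.393 TPM in the Ctrl and Y/T KO colon and 6.87 and 0.663 TPM in the bladder. *Kif26a* averaged 1.71 and 0.684 TPM in the colon and 5.92 and 0.955 TPM in the bladder. All 5 had negative log2 fold changes in both tissues, a direction that the choice by likeness favors.

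*Slc26a4* was near 0 in the colon and bimodal in the bladder. It ran from 0.0552 to 0.336 TPM in the 6 colon libraries, in which it was not tested. In the bladder it was at 19.2 TPM in Ctrl mouse 784 and listed at 0 in Ctrl mice 785 and 788, whereas Y/T KO mouse 782 was listed at 0 and mice 783 and 780 had 32.9 and 53.3 TPM. The split ran across the genotypes, and the log2 fold change was 3.28 with an SE of 3.23. The same 3 libraries held *Pbsn*, at 967 TPM in mouse 784, 33.9 TPM in mouse 783, and 311 TPM in mouse 780, and at most 0.728 TPM in the other 3. Other transport genes were high in those 3 libraries as well. *Slc12a2*, of the sodium-potassium-chloride cotransporter of secretory epithelia, was at 119, 186, and 230 TPM there and at 7.99 to 8.50 TPM in the other 3. *Papss2*, which makes the activated form of sulfate, was at 100, 159, and 165 TPM there and at 8.29 to 13.4 TPM elsewhere. *Pdzk1*, of a scaffold protein that binds several SLC26 proteins, was at 7.92 to 11.3 TPM there and at most 0.136 TPM elsewhere, and *Slc9a2*, of a sodium-proton exchanger, was at 28.5 to 45.6 TPM there and 5.01 to 7.65 TPM elsewhere. *Slc26a2*, *Slc26a11*, and *Slc26a7* did not separate these libraries from the rest. Of the listed markers of seminal vesicle and prostate, *Pbsn* alone separated these libraries. Whether the RNA of accessory sex glands sets these values was not tested. Without these 3 libraries, *Slc26a4* was listed at 0 in every bladder library.

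**Figure D4:**
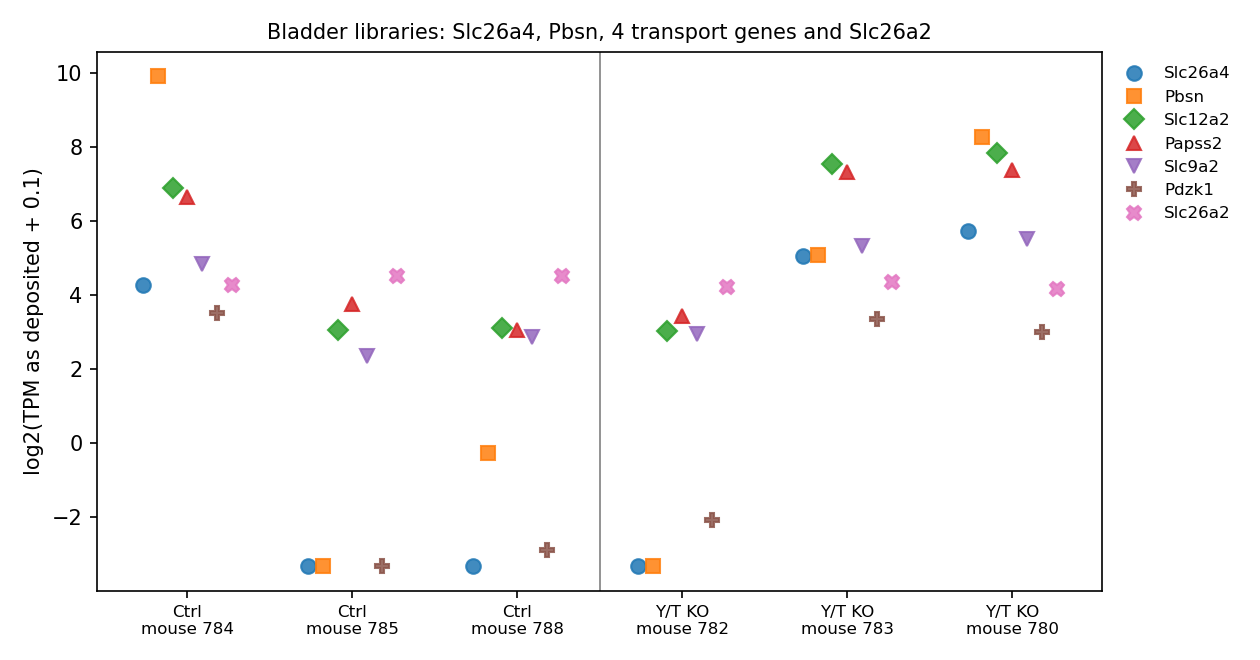
TPM as deposited in each bladder library, on a log2 scale after adding 0.1 TPM, for *Slc26a4*, *Pbsn*, 4 transport genes, and *Slc26a2*, with Ctrl mice on the left and Y/T KO mice on the right of the line. *Slc26a4* and the 4 transport genes are high in Ctrl mouse 784 and Y/T KO mice 783 and 780, in which *Pbsn* exceeds 10 TPM, whereas *Slc26a2* stays at 17.7 to 22.8 TPM in all 6.

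*Slc26a11*, of a sulfate and chloride transporter found in many tissues, was the evenest member. In the colon, with the mice in the order used above, its TPM was 7.68, 6.60, and 6.48 in Ctrl, and 6.55, 7.52, and 8.10 in Y/T KO. In the bladder its TPM was 7.52, 7.96, and 9.73 in Ctrl, and 11.0, 5.80, and 10.7 in Y/T KO. The genotypes overlapped in both tissues, with log2 fold changes of 0.13 (SE, 0.20) and 0.08 (SE, 0.25). Between tissues the value was -0.01 (SE, 0.22) after rescaling over all 12 libraries, and -0.27 with TPM as deposited.

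Of the 5 members tested in the bladder (*Slc26a2*, *Slc26a3*, *Slc26a4*, *Slc26a7*, and *Slc26a11*), none was called by limma, when 55 of 18237 genes were (0.302%). *Slc26a7* was the 1 member under an unadjusted p of 0.05 and the 1 member without overlap of genotypes, and it was lower in both respects, against 8.20% of all genes with such a p in that direction and 20.4% of all genes without overlap in either direction. The effect of the knockout in the colon minus that in the bladder was -0.80 (SE, 0.42) for *Slc26a2*, 0.15 (SE, 1.04) for *Slc26a3*, and -0.14 (SE, 0.63) for *Slc26a7* on the log2 scale. None of the 5 members passed the adjusted threshold for this interaction, and none had an unadjusted p under 0.05, when 0.0607% and 11.9% of 19773 genes did.

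**Figure D5:**
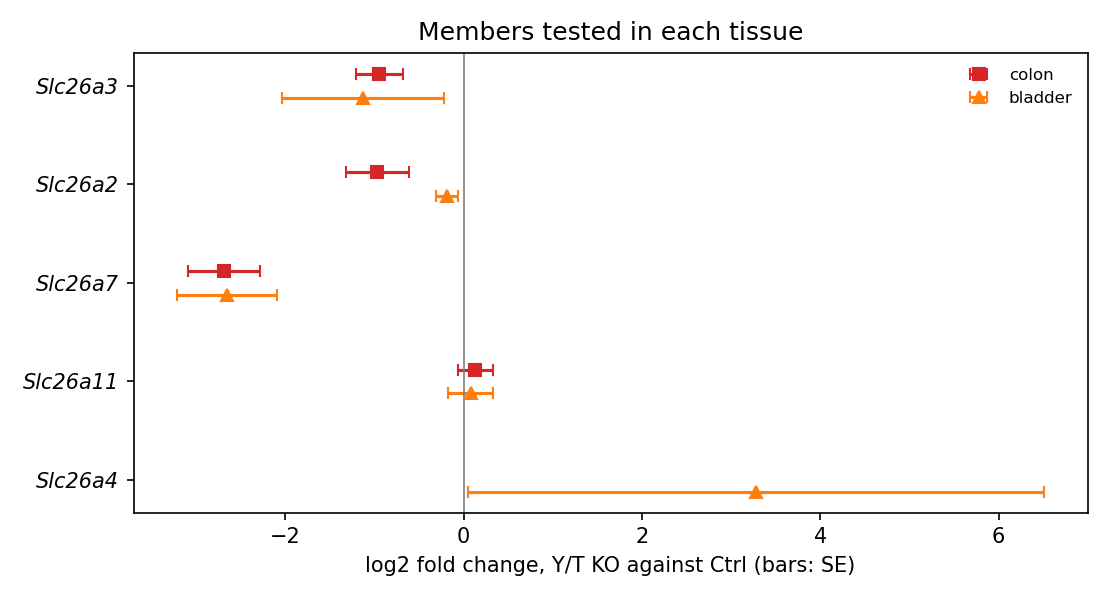
Log2 fold change of Y/T KO against Ctrl for the members that were tested, with the SE as bars, 4 in the colon and 5 in the bladder. *Slc26a7* lies near -2.7 in both tissues, *Slc26a3* and *Slc26a2* lie near -1 in the colon, *Slc26a11* lies near 0, and *Slc26a4* in the bladder has a bar more than 3 log2 units wide on each side.

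The remaining members were at or under the limit at which genes were tested. *Slc26a8*, of a transporter of the male germ line, ran from 0.0663 to 0.271 TPM in the colon and from 0.151 to 1.17 TPM in the bladder, and its highest value was in Y/T KO mouse 780. *Slc26a1*, of a sulfate and oxalate transporter of liver and kidney, was at most 0.0848 TPM in any library, and it overlaps *Idua* on the opposite strand, which ran from 2.89 to 17.5 TPM. *Slc26a9*, of a chloride channel of the stomach and airway, was listed at 0 in 10 of 12 libraries and reached 0.0747 TPM. *Slc26a6*, of an apical exchanger of chloride for oxalate and bicarbonate that is widely expressed in the intestine, was listed at 0 in all 12. Of 21918 protein-coding genes, 4182 were listed at 0 in all 12. The neighbors of *Slc26a6* on chromosome 9, *Celsr3* and *Tmem89*, also were listed at 0 in all 12. *Muc2*, of the main gel-forming mucin of the colon, was at only 0.0288 to 0.917 TPM in the colon libraries. Whether the 0 of *Slc26a6* is a failed estimate was not tested, so nothing is said of its expression. The family genes outside the 9 members were low as well, as *Slc26a5* was at most 0.288 TPM and *Slc26a10* ran from 0.0535 to 0.785 TPM.

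The 79 listed partner genes of SLC26 transport found in the files were compared next. Of 66 tested in the colon none was called by limma, and the counts at an unadjusted p of 0.05 are given for each list here. Of all genes, 4.59% were lower and 5.14% higher at such a p in the colon, and 8.20% and 6.64% in the bladder. Among channels and exchangers for chloride and bicarbonate outside the family, 18 were tested in the colon, with 8 lower and 10 higher, none lower and 1 higher at an unadjusted p of 0.05, and a median log2 fold change of 0.02. The 3 with the largest difference were *Clca4b* (2.55; SE, 1.78), *Slc4a11* (1.59; SE, 0.61), and *Lrrc8a* (1.28; SE, 0.83), and *Clca4b* rests on mouse 780, at 193 TPM against 1.33 to 3.15 TPM in the other 5 colon libraries. *Cftr* had 40.4, 54.8, and 41.1 TPM in the Ctrl colon, whereas the Y/T KO colon had 45.1, 34.9, and 26.9 TPM. In the bladder 14 of the list were tested and none was called, with 3 lower and 1 higher at an unadjusted p of 0.05 and a median of -0.31 against 0.00 for all genes.

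Sodium and proton carriers and their scaffolds gave 13 tested genes in the colon, with 2 lower and 1 higher at an unadjusted p of 0.05 and a median log2 fold change of -0.28. *Slc9a3*, the gene of NHE3, had a value of -0.78 with an SE of 0.28, and *Scnn1a*, of a subunit of the epithelial sodium channel, one of -0.58 with an SE of 0.21, each with an adjusted p of 0.464 in limma and both without overlap of the genotypes. *Scnn1g*, of another subunit, had a value of 1.03 (SE, 0.35). In the bladder 12 were tested and none was called, with 2 lower and none higher at an unadjusted p of 0.05, and *Atp6v0a4*, of a proton pump subunit, had the largest difference without overlap (-1.32; SE, 0.36).

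Carbonic anhydrases supply bicarbonate to the exchangers, and 10 of 12 tested had a negative log2 fold change in the colon, where 49.1% of all genes did. Of these, 5 had an unadjusted p under 0.05, against 4.59% of all genes in that direction, and the median was -0.39, and none was called. The largest differences were those of *Car3* (-1.57; SE, 0.57), *Car1* (-1.33; SE, 0.36; limma adjusted p = 0.370), and *Car11* (-0.93; SE, 0.35). *Car3* rests on Ctrl mice 788 and 786, at 85.1 and 109.7 TPM. Ctrl mouse 787, at 20.4 TPM, lay within the Y/T KO range of 16.1 to 20.7 TPM. The list summed to 3679 to 4332 TPM in the Ctrl colon and 1909 to 2894 TPM in the Y/T KO colon. In the bladder 13 were tested, the median was -0.01, and 1 was called, *Car11*, which encodes an acatalytic relative of the carbonic anhydrases. It fell from 29.9, 39.4, and 31.8 TPM in the Ctrl bladder to 14.4, 8.11, and 10.4 TPM in the Y/T KO bladder, a log2 fold change of -1.64 with an SE of 0.21 (limma adjusted p = 0.0474). That call was lost when any 1 of 5 libraries was left out, all but Y/T KO mouse 782. *Car9*, of a hypoxia-inducible membrane enzyme, had a value of -1.63 (SE, 0.30; limma adjusted p = 0.106) and was called when all 12 libraries were fitted together, with or without the mouse as a block.

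Genes of sulfate uptake, activation, and use had a median log2 fold change of -0.20 over the 11 tested in the colon, with 2 lower at an unadjusted p of 0.05 and none called, and *Papss2* had a value of -0.51 (SE, 0.19) without overlap. *Sgsh* (-1.16; SE, 1.05) rests on Y/T KO mouse 759, at 0.544 TPM against 7.45 to 11.0 TPM in the other 5. In the bladder the median over 12 was 0.00 and none had an unadjusted p under 0.05. Guanylin signaling and the regulators of SLC26 and CFTR had a median of -0.01 over 12 genes in the colon and of -0.02 over 7 in the bladder, with none called in either. At an unadjusted p of 0.05 there was 1 higher in the colon, and there were 1 lower and 1 higher in the bladder. *Guca2b*, of uroguanylin, was at 16.2 to 31.9 TPM in the Ctrl colon and at 41.0 to 53.9 TPM in the Y/T KO colon, a difference of 0.97 on the log2 scale (SE, 0.30) with an adjusted p of 0.424 in limma. *Cdx2* and *Hnf4a*, of transcription factors of the intestinal epithelium, had values of 0.60 (SE, 0.34) and 0.04. *Prkg2*, of a cGMP-dependent kinase, had a value of -1.91 (SE, 0.60) in the bladder, without overlap.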

How the data were processed

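Stranded libraries of polyadenylated RNA were aligned to GRCm38 and assembled with StringTie by the authors, per the labels and the study's methods. The deposited tables give, for each gene, TPM, FPKM, and coverage (reads per base) as made by the authors. The labels also name HISAT2, and read counts used by the authors in DESeq2 were not used here. Mouse numbers and groups come from the labels. Replicate numbers pair samples, because they name the animal.

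The 9 members and the gene lists were chosen with earlier results of these data known. Rows were summed by gene ID. Size factors by the median-of-ratios method rescaled TPM, set for each tissue in the comparisons of genotypes and over all 12 libraries in the comparison of tissues and the interaction. A gene was kept if 3 or more libraries of the comparison reached 0.5 TPM, and log2(TPM + 0.1) was fitted with limma 3.58.1 in R 4.3.3 (trend and robust options; Benjamini-Hochberg adjusted p under 0.05, two-sided). The comparison of tissues and the interaction were fitted on all 12 libraries. The within-mouse correlation was 0.0415 for the colon fit and 0.0493 for the bladder fit. The scripts were tested on simulated data. Counting error was not estimated, so precision rests on the spread between mice.

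The genes named were all members, *Yap1* and *Wwtr1*, the partner genes called or with the 3 largest log2 fold changes in each list and tissue, the 5 genes most alike in profile to *Slc26a3* and *Slc26a7*, and defining markers, and genes named beyond these were chosen after their values were seen. *Hnf4a*, *Cftr*, *Aqp8*, *Cdhr5*, *Krt8*, *Krt20*, *Guca2a*, *Vil1*, *Lgals4*, and *Epcam* are such genes where their values are given. Alternatives covered the pseudocount, filter, scaling, unit, limma options, threshold, libraries left out, a fit of all libraries, and the mouse as a block. Coverage in place of TPM and the bladder without libraries above 10 TPM of *Pbsn* were added after seeing the data.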

Additional observations from a re-analysis of the deposited data

How the results depend on the processing

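Of 352 recomputed log2 fold changes of the members, 339 stayed within 1 SD between replicates of the reported value, 13 moved by more, and 25 changed sign, all 25 among values that were not called. The 2 members called between tissues stayed called under each alternative, and no member was called for the interaction under any. *Slc26a7* became the 1 member called in the colon with all 12 libraries in 1 fit, with the mouse as a replicate block, without the trend and robust options, and at an adjusted p of 0.1, and the 1 member called in the bladder with the first 2 of these. Leaving out any 1 library called 0 members in either tissue. *Slc26a7* failed the expression filter and could not be fitted in the colon when a Ctrl colon library was left out or a mean of 1 TPM was required, nor in the bladder without the *Pbsn* libraries.

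Over all genes, 24 were called in the colon, 6 without a filter, 42 at an adjusted p of 0.1, 71 with all libraries in 1 fit, 73 with the replicate block, and 5 to 63 with 1 library left out. In the bladder 55 were called, 140 at an adjusted p of 0.1, 9 without the *Pbsn* libraries (where the lone Y/T KO library is assumed to vary like the other groups), and 11 to 51 with 1 library left out. Of the partner genes, the 1 called in the bladder became 0 without a filter, with TPM or FPKM as deposited, without the trend and robust options, and without the *Pbsn* libraries, and 2 (*Car11* and *Car9*) with all libraries in 1 fit or the replicate block, and it ran from 0 to 1 with 1 library left out. In the colon it ran from 0 to 1, the 1 being *Car3* without Ctrl mouse 787. The fit of all libraries without the block called the same members and partner genes in each tissue as the fit with it. The cause of these changes was not tested.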
